A study of Mus musculus with 9 samples.

Results

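The enzymes described here carry arginine to ornithine and on to the polyamines. Of the 9 genes sought by symbol (Arg2, Ass1, Asl, Oat, Odc1, Srm, Sms, Sat1 and Amd1), 8 were read by 13 of the 22690 probe sets on the array. Arg2 had 2 probe sets, Odc1 had 3, and Asl, Oat, Srm and Sat1 had 1 each. Another 4 probe sets are annotated to a gene and a pseudogene together, 1 to Ass1 and Gm5424 and 3 to Sms and Sms-ps, so their signal cannot be assigned to one of the pair. No probe set annotated to Amd1 was used here. Arg2 was chosen by its lower signal in KO than in WT on these same arrays, so its differences between genotypes are given as a description, with no test. The other genes were taken for their place in the pathway, with earlier results of these data known.

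The RNA came from layer IV of the barrel cortex, the somatosensory area that maps the whiskers, laser microdissected from C57BL/6 mice at postnatal day 5. Genotypes of the gene for the growth cone protein GAP-43 (Gap43) were compared, wildtype (WT), heterozygous (HZ) and knockout (KO), and no treatment is given. The part of Gap43 that was deleted is not stated in the labels. Each genotype had 3 mice with 1 Affymetrix array each, so n = 3 throughout and precision is limited by that number. The series asks how gene expression in the barrel cortex differs when GAP-43 is reduced or missing.

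Arginase 2 (Arg2) is the mitochondrial arginase, which splits arginine into ornithine and urea. Argininosuccinate synthase (Ass1) and lyase (Asl) rebuild arginine from citrulline, and ornithine aminotransferase (Oat) links ornithine to glutamate and proline. Ornithine decarboxylase (Odc1) makes putrescine, which spermidine synthase (Srm) and spermine synthase (Sms) extend with aminopropyl groups that depend on S-adenosylmethionine decarboxylase (Amd1). Sat1 acetylates spermidine and spermine and so starts their breakdown. Arginine is also the substrate of nitric oxide synthases, and polyamines modulate glutamate receptors and potassium channels in neurons. Odc1 and Sat1 are known to be controlled strongly after transcription, which an mRNA array does not read.

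Values are MAS5 signals, linear intensities with nearly the same trimmed mean on each array (499.95 to 499.956). Gap43 itself, read by 1 probe set, averaged 5376 ± 1500 in WT, 4814 ± 368 in HZ and 1403 ± 484 in KO (SD, n = 3), and each KO array lay below each WT and HZ array. Rorb, a marker of layer IV neurons, was brighter on average than 73.2% of probe sets, and read 460 to 589 in WT, 518 to 709 in HZ and 302 to 356 in KO. Oligodendrocyte markers were present, with summed signals of 4752 to 6924 in WT, 4656 to 5740 in HZ and 3297 to 5071 in KO, though Mog was between 2.16 and 6.35 on all arrays. Each genotype held 2 females and 1 male by Xist and Y-linked signal. The Gapdh control probe sets gave 3'/5' signal ratios of 12.5 to 19.5 in WT, 11.5 to 27.9 in HZ and 15.9 to 17.2 in KO. The labelling used a protocol with 2 cycles of cDNA synthesis.

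Arg2 signal ran from highest in WT through HZ to lowest in KO on both of its probe sets. Probe set 1418847_at read 454, 510 and 515 on the WT arrays, 447, 372 and 436 on the HZ arrays and 212, 271 and 234 on the KO arrays. The 3 genotypes did not overlap on this probe set, and the gap between the lowest WT array and the highest HZ array was far smaller than that between the lowest HZ array and the highest KO array. The means were 493 ± 33.8 in WT, 418 ± 40.5 in HZ and 239 ± 29.9 in KO (SD, n = 3), so that HZ stood at 84.9% and KO at 48.5% of WT. On the log2(signal + 16) scale, which understates the change of dim probe sets, KO was -1.00 against WT and -0.77 against HZ, and HZ was -0.23 against WT.

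The dimmer Arg2 probe set, 1438841_s_at, gave the same order. It read 242, 163 and 227 in WT, 182, 142 and 134 in HZ and 84.5, 78.7 and 65.0 in KO. Here the KO arrays again lay below all others, while WT and HZ overlapped, since WT 2 was below HZ 1. Means were 211 ± 41.7 in WT, 153 ± 25.8 in HZ and 76.1 ± 10.0 in KO (SD, n = 3), and KO stood at 36.1% and HZ at 72.4% of WT. The log2 change was -1.29 for KO against WT, -0.87 for KO against HZ and -0.42 for HZ against WT. The suffix _s_at marks probes shared by more than 1 transcript.

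**Figure D1:**
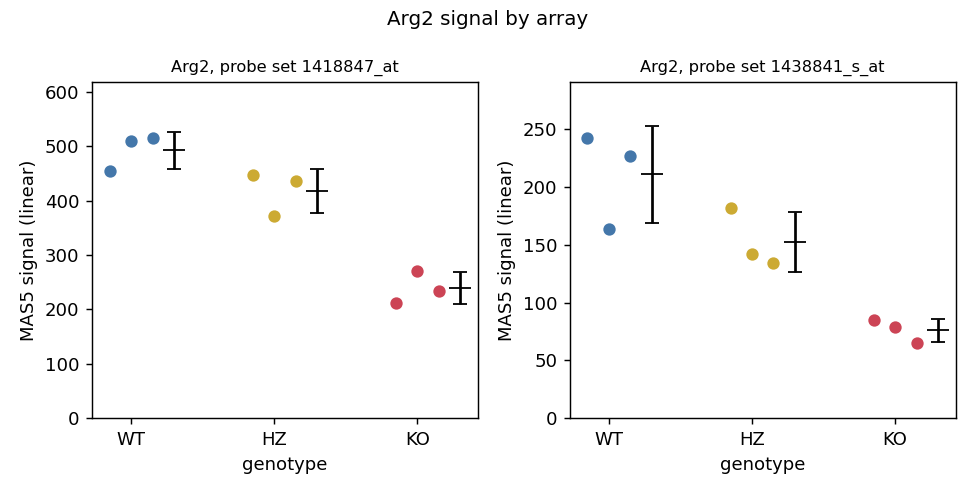
MAS5 signal of Arg2 on its 2 probe sets, with genotype on the horizontal axis and linear signal on the vertical axis. Points are single arrays and black marks are the mean with SD over 3 arrays. The KO arrays lie below every WT and HZ array on both probe sets, and WT and HZ overlap on 1438841_s_at alone.

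Both Arg2 probe sets separated KO from WT, and in that direction 5.83% of the 13576 probe sets tested did so. Both also separated KO from HZ, as did 7.35% of probe sets in that direction. Since these arrays chose Arg2, nothing is read from these counts. Across the 9 arrays the 2 probe sets correlated at r = 0.905, and after the genotype means were removed at r = -0.07, and both had their genotype means in the order WT, HZ, KO. Within genotypes the spread of 1418847_at was small, with an SD of 0.14 on the log2 scale, and 11.2% of tested probe sets had a smaller one. For 1438841_s_at the SD was 0.22, and 46.2% had a smaller one.

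In females alone the log2 change of Arg2 in KO against WT was -0.89 on 1418847_at and -1.30 on 1438841_s_at. Between the single males it was -1.22 and -1.27. When each array's Gapdh 3'/5' ratio entered the fit, the change was -0.98 and -1.25. Leaving out each array in turn gave -1.09 to -0.92 on 1418847_at and -1.45 to -1.19 on 1438841_s_at. All KO arrays lay below all WT arrays, so neither a split by sex nor an omitted array could turn these signs. These values come from the arrays that chose Arg2 and are a description only.

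Most astrocyte markers were lower in KO than in WT, as Arg2 was. Of 10 markers, 9 were below 0 in KO against WT, where 46.3% of all tested probe sets were below 0. Their median log2 change was -0.38, with Aqp4 at only -0.03 and Gfap above 0. In HZ against WT 8 were below 0 (44.7% of all tested), and in KO against HZ 7 were (53.4%). Not all followed the order of Arg2 from WT through HZ to KO. Glul averaged lowest in HZ, and Aqp4 and Gfap averaged highest in KO. The summed signal of the 10 markers was 14710 to 19191 in WT, 14062 to 14683 in HZ and 10050 to 14650 in KO. Glul and Gja1 were the brightest of the 10, at means of 5497 and 4497 in WT. Gja1, the astrocyte gap junction protein connexin 43, had a log2 difference of -1.04 in KO against WT, close in size to that of Arg2. None of the markers was at 0, though Slc1a2, the main glutamate transporter of astrocytes, was too dim to be tested. The sum correlated with Arg2 at r = 0.850 over the 9 arrays, which share their genotypes, given here as a description. KO 2 had an astrocyte sum of 14650, within the range of the HZ arrays, and an Arg2 signal of 271 on 1418847_at, below the HZ range of 372 to 447. Its single markers were divided. Glul at 5186, Aqp4 at 2163, Slc1a2 and Aldh1l1 lay above all HZ arrays. Gja1 at 2527, Aldoc at 1992, Fgfr3 at 619 and S100b at 96.9 lay below all HZ arrays, and Slc1a3 and Gfap within their range. In bulk tissue, fewer cells of a type and less RNA per cell cannot be told apart, and the part of astrocyte content in the Arg2 difference was not tested.

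**Figure D2:**
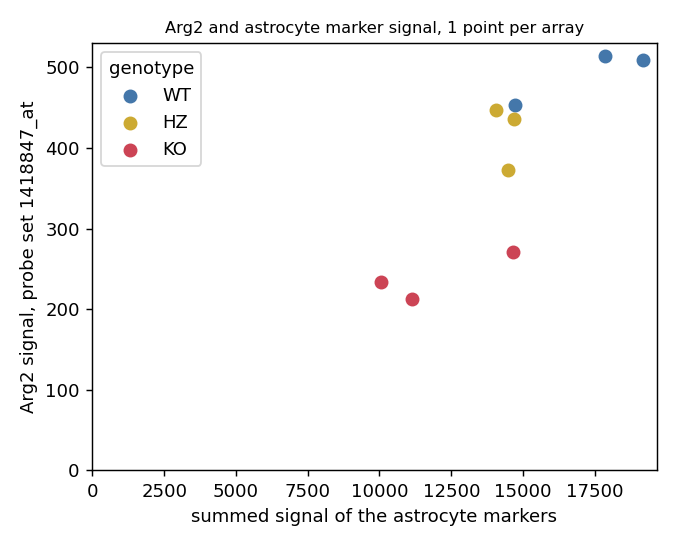
Summed MAS5 signal of 10 astrocyte markers on the horizontal axis against Arg2 signal on probe set 1418847_at on the vertical axis, with 1 point per array coloured by genotype. KO 2 lies at the marker sum of the HZ arrays but below them in Arg2 signal. Its single markers were divided between above, within and below the HZ arrays.

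Summed markers of other cells had lower correlations with Arg2 than the astrocyte sum. The summed signal of 7 general neuron markers was 23830 to 26833 in WT, 22706 to 26643 in HZ and 19046 to 29130 in KO, so KO spanned both other genotypes. Layer IV and upper layer markers, 4 of 6 with a probe set, summed to 2254 to 2564 in WT, 2888 to 3477 in HZ and 1376 to 2558 in KO. Rorb, one of these, lay wholly lower in KO, as Arg2 did, with a log2 difference of -0.66 against WT and -0.86 against HZ. Of all tested probe sets, 5.83% lay wholly lower in KO than in WT and 7.35% wholly lower than in HZ. The other markers of this list differed from Rorb. In KO, Cux1 lay below HZ but overlapped WT (-0.29 against WT). Cux2 (0.09) and Rasgrf2 (-0.10, too dim to be tested) overlapped both. Over the 9 arrays the correlation with Arg2 was 0.143 for general neuron, 0.510 for layer IV and upper layer, 0.668 for oligodendrocyte and precursor, 0.373 for microglia and 0.366 for endothelial and mural markers. The part of these in the Arg2 difference was not tested.

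Arginine synthesis was read dimly. The probe set of Ass1 and Gm5424 gave 133, 121 and 109 in WT, 195, 137 and 182 in HZ and 127, 17.9 and 201 in KO. The HZ arrays all lay above the WT arrays, but KO 2 was far below every other array, and the KO arrays spanned the rest. With 3 arrays per genotype the log2 change in KO against WT was -0.43 (95% interval -1.49 to 0.64, limma adjusted p = 0.859), and without KO 2 it turned to 0.37. For KO against HZ it was -0.87 (-1.94 to 0.20, limma adjusted p = 0.721), and without KO 2 it was -0.075. For HZ against WT it was 0.44 (-0.63 to 1.51, limma adjusted p = 0.868), and 8.51% of tested probe sets likewise had all HZ arrays above all WT arrays. Within genotypes, 99.4% of tested probe sets had a smaller spread than this one.

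Asl, the lyase that releases arginine, was below the filter on dim probe sets and was not tested. Its probe set 1448350_at was brighter than 21.1% of probe sets. Signal was 74.3, 63.5 and 43.4 in WT, 33.2, 19.6 and 34.4 in HZ and 38.6, 75.5 and 82.0 in KO. The HZ arrays lay below all WT and KO arrays, and WT and KO overlapped. HZ was -0.76 against WT on the log2 scale, KO was 0.82 against HZ, and KO against WT was 0.07. Of the tested probe sets, 4.39% had all HZ arrays below all WT arrays and 6.67% all KO arrays above all HZ arrays. MAS5 signals this low are noisy, and no detection calls were used here.

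Oat, the mitochondrial enzyme that uses the same ornithine as the polyamine route, was bright and alike across genotypes in its mean. The Oat probe set gave 2246, 1813 and 2143 in WT, 2122, 1576 and 2055 in HZ and 1738, 1915 and 2224 in KO, with all 3 genotypes overlapping. Means were 2067 ± 226, 1918 ± 298 and 1959 ± 246 (SD, n = 3). The fold of KO over WT was 0.947 (95% interval 0.743 to 1.21, limma adjusted p = 0.924), and that of HZ over WT 0.924 (0.725 to 1.18, limma adjusted p = 0.889). These intervals leave room for an Oat fold as low as 0.743 in KO and 0.725 in HZ.

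Odc1, the first and regulated step of polyamine synthesis, did not differ between genotypes past the threshold on any of its 3 probe sets. The brightest, 1438761_a_at, read 2054, 1754 and 2137 in WT, 1546, 2170 and 1880 in HZ and 2632, 2062 and 1614 in KO. KO 1 was the highest array and HZ 1 the lowest, and the genotypes overlapped. The fold of KO over WT was 1.04 (95% interval 0.786 to 1.39, limma adjusted p = 0.952), that of HZ over WT was 0.936 (0.705 to 1.24) and that of KO over HZ was 1.11 (0.840 to 1.48).

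The second Odc1 probe set, 1437711_x_at, ran with the first over the 9 arrays (r = 0.946), whereas the third, 1427364_a_at, correlated with them at 0.491 and 0.470. Signal on 1427364_a_at was 703, 983 and 1055 in WT, 851, 710 and 914 in HZ and 1418, 818 and 754 in KO, so KO 1 was the highest array here as well. The suffix _x_at marks probes that may bind other sequences. The sign of the KO against WT difference of Odc1 rested on single arrays. Without KO 1, the log2 change on the 3 probe sets went from 0.06, 0.07 and 0.09 to -0.11, -0.08 and -0.19. Without WT 2 it was -0.023 on 1438761_a_at, and without WT 1 it was -0.089 on 1427364_a_at. KO 1 was the male of its genotype, and between the single males the log2 change of 1427364_a_at in KO against WT was 0.42, against -0.08 in females, a difference that was not tested.

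Srm, which turns putrescine into spermidine, had KO arrays that stood apart from HZ on the low side. Srm read 2120, 2183 and 1938 in WT, 2081, 2208 and 2156 in HZ and 1705, 1466 and 2007 in KO. All KO arrays were below all HZ arrays, and KO 3 lay within the WT range. The means were 2080 ± 127, 2149 ± 64.2 and 1726 ± 272 (SD, n = 3). The fold of KO over HZ was 0.799 (95% interval 0.643 to 0.992), which did not pass over all probe sets (unadjusted p = 0.0429, limma adjusted p = 0.628). KO over WT was 0.825 (0.665 to 1.03, limma adjusted p = 0.671), and these 2 comparisons share the KO arrays. A separation of KO below HZ was seen in 7.35% of tested probe sets.

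The 3 probe sets of Sms and Sms-ps did not agree on a direction for HZ. The brightest, 1434190_at, read 3250, 2339 and 2822 in WT, 2975, 3761 and 2995 in HZ and 2651, 3276 and 2788 in KO, with overlap among all genotypes. Its log2 change was 0.21 for HZ against WT (95% interval -0.13 to 0.56) and 0.06 for KO against WT (-0.28 to 0.40). On 1421052_a_at the signal was 715 to 906 in WT, 805 to 910 in HZ and 882 to 941 in KO, and on 1428699_at it was 148 to 181, 126 to 168 and 135 to 217. Across the 9 arrays these probe sets correlated at only 0.0886 to 0.362 with each other. Limma adjusted p-values of the 3 probe sets lay between 0.819 and 0.964 over all comparisons, and Sms is X-linked, as is Sat1.

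Sat1, the acetylase of polyamine breakdown, varied more between mice than between genotypes. The Sat1 probe set gave 527, 376 and 560 in WT, 527, 306 and 444 in HZ and 289, 489 and 394 in KO, and the genotypes overlapped. The means were 487 ± 98.2, 426 ± 112 and 391 ± 99.6 (SD, n = 3). The fold of KO over WT was 0.802 (95% interval 0.559 to 1.15, limma adjusted p = 0.774), and that of HZ over WT was 0.869 (0.606 to 1.25, limma adjusted p = 0.873). WT 2 and HZ 2, with the highest 3'/5' ratios of their genotypes at 19.5 and 27.9, had the lowest Sat1 and Oat signals of their genotypes. In KO the order was the opposite, since KO 1, with the lowest ratio of 15.9, had the lowest Sat1 and Oat signals, and KO 2, with the highest of 17.2, had the highest Sat1. With the ratio in the fit, the Sat1 log2 change in KO against WT was -0.23 in place of -0.32. Between the single males that change was -0.915, against -0.02 in females, a difference that was not tested.

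**Figure D3:**
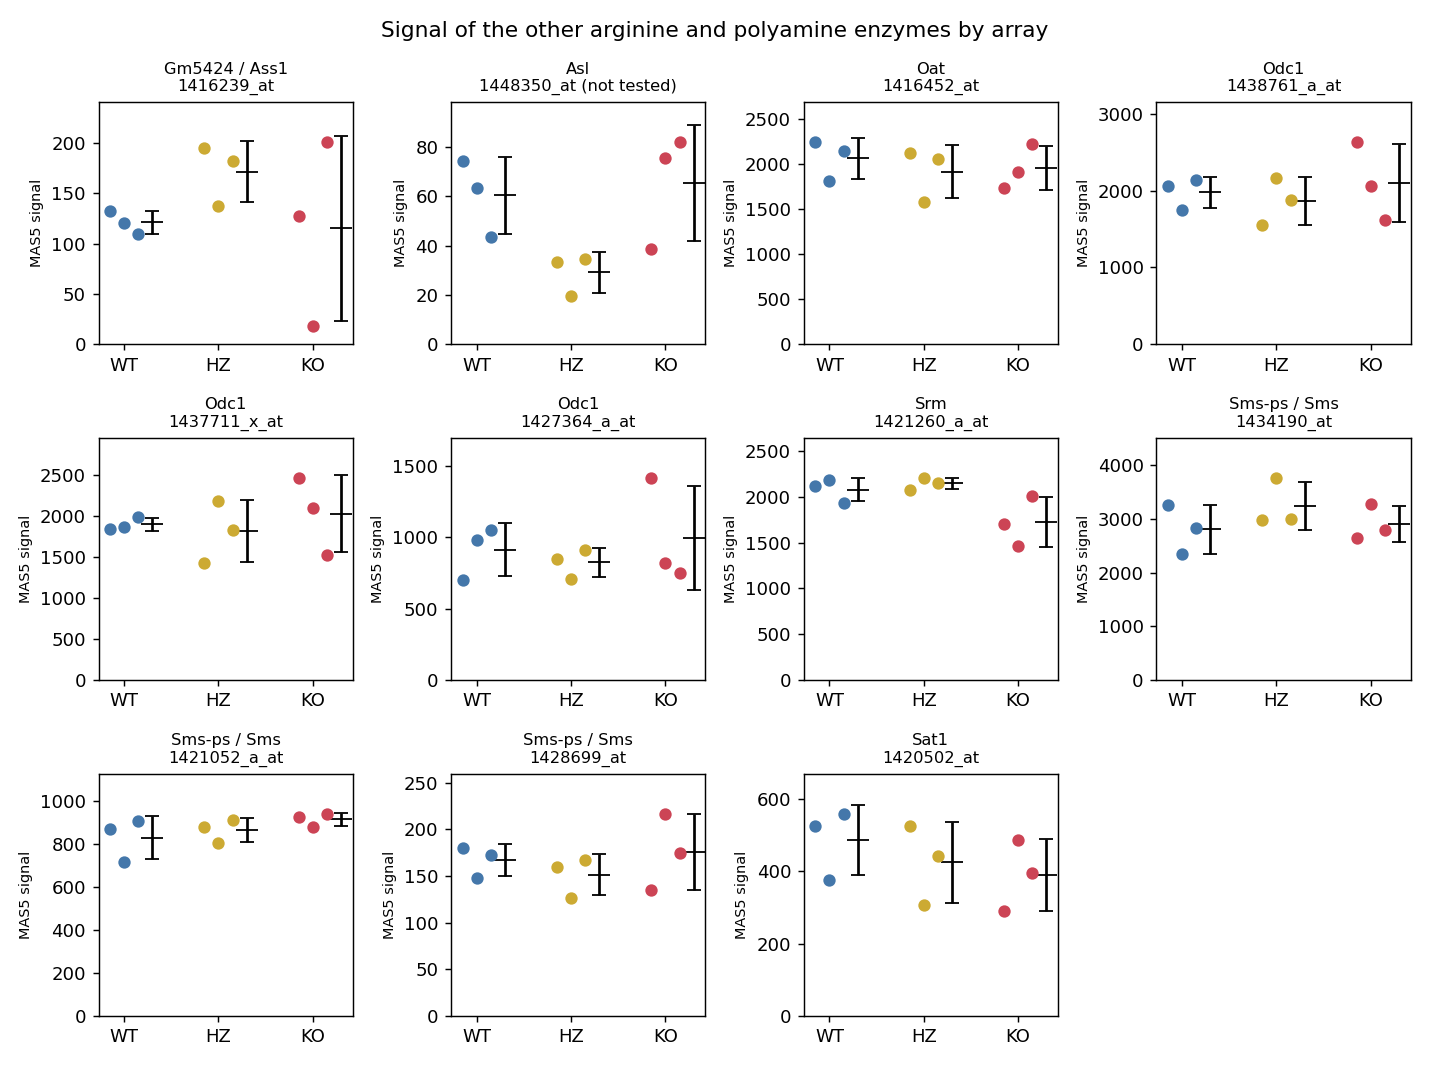
MAS5 signal of the 11 member probe sets other than those of Arg2, with genotype on the horizontal axis and linear signal on the vertical axis from 0. Points are single arrays and black marks are the mean with SD over 3 arrays. KO lies wholly below HZ for Srm, KO 2 is far below the rest for the probe set of Ass1 and Gm5424, and most other panels overlap.

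Apart from Arg2, 10 member probe sets were bright enough to be tested, and 0 passed an adjusted p of 0.05 in limma in any of the 3 comparisons. In KO against WT and in KO against HZ, 0.00737% of all tested probe sets passed, which is Gap43 alone, and in HZ against WT 0% did. At an unadjusted p below 0.05 there were 0 members in KO against WT, where 8.03% of all probe sets reached it, 0 in HZ against WT (6.22%) and 1, Srm, in KO against HZ (7.73%). The median log2 change of the 10 was 0.05 in KO against WT, beside 0.02 over all tested probe sets, -0.09 in HZ against WT beside 0.03, and 0.06 in KO against HZ beside -0.02. Their range in KO against WT was -0.43 to 0.15. Over the 9 arrays Arg2 on 1418847_at correlated with Srm at 0.622, with Sat1 at 0.524 and with Oat at 0.212, and with the Odc1 probe sets at -0.31 to -0.20. With genotype means removed, r was -0.52 for Srm, 0.710 for Sat1 and 0.387 for Oat, so that for Srm the sign turned. The sign also turned for Asl (-0.20 to 0.48), for Ass1 and Gm5424 (0.22 to -0.49) and for Sms 1428699_at (-0.03 to 0.74). On Sms 1421052_a_at r went from -0.49 to 0.003. These are descriptions over arrays that share 3 genotypes.

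**Figure D4:**
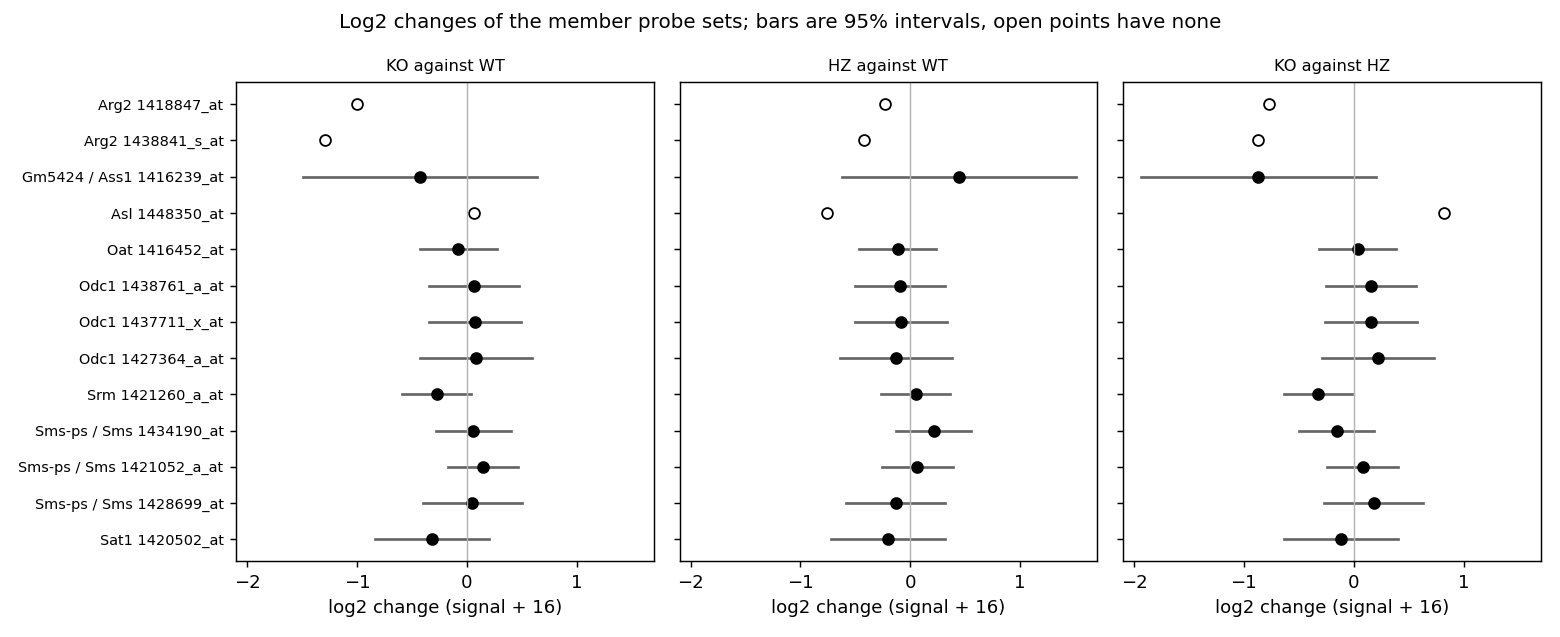
Log2 change of each of the 13 member probe sets on the log2(signal + 16) scale in KO against WT, HZ against WT and KO against HZ. Filled points with bars are limma estimates with 95% intervals, and open points (Arg2 and Asl) are differences of means with no test. Arg2 lies at -1.00 and -1.29 in KO against WT, the comparison that chose it. In KO against HZ the probe set of Ass1 and Gm5424 lies at -0.87, level with the lower Arg2 point. Its interval there is -1.94 to 0.20, and without KO 2 the value was -0.075.

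Around these enzymes, 52 further genes of arginine and polyamine metabolism were listed, of which 41 had a probe set of their own and 31 were bright enough to be tested. Of the 31, 0 passed the adjusted threshold of 0.05 in limma in any comparison. In KO against WT 16 were above 0 and 15 below, where 46.3% of all tested probe sets were below. The median log2 change was 0.02, the same as over all tested probe sets. In HZ against WT the split was again 16 to 15 (median 0.01, 44.7% of all below 0). In KO against HZ 15 were above 0 and 16 below (median -0.02, 53.4% of all below 0). At an unadjusted limma p below 0.05 there were 2 in KO against WT (8.03% of all tested), 0 in HZ against WT (6.22%) and 2 in KO against HZ (7.73%). Nothing is read from these counts beside those shares, and the genes that follow are named by a set rule.

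Smox, the spermine oxidase that returns spermine to spermidine, was one of the genes at an unadjusted p below 0.05 in limma. It read 426, 535 and 418 in WT, 554, 367 and 473 in HZ and 387, 216 and 291 in KO. All KO arrays lay below all WT arrays, as in 5.83% of probe sets, while KO 1 was above HZ 2. The log2 change was -0.63 in KO against WT (95% interval -1.10 to -0.15, unadjusted p = 0.0142, limma adjusted p = 0.537) and -0.63 in KO against HZ (limma adjusted p = 0.542).

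Ddah2, which breaks down methylated arginines that inhibit nitric oxide synthase, was on the high side. Its signal was 803, 493 and 764 in WT, 1032, 674 and 1092 in HZ and 933, 982 and 1271 in KO, so that all KO arrays were above all WT arrays, as in 7.83% of probe sets. The log2 change in KO against WT was 0.63 (95% interval 0.14 to 1.13, limma adjusted p = 0.537). Aldh18a1, the enzyme that makes the precursor of ornithine and proline from glutamate, averaged 429 ± 82.5 in KO and 590 ± 143 in HZ (SD, n = 3), with overlap and a log2 change of -0.44 (limma adjusted p = 0.633). Of its 5 probe sets, the other 2 bright enough to be tested were at -0.29 and -0.12 in that comparison.

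Arg1, the cytosolic arginase, was too dim to be tested, with signals of 28.5 to 32.2 in WT, 6.71 to 65.7 in HZ and 6.81 to 59.2 in KO. Among the enzymes that compete for arginine, Nos1, the neuronal nitric oxide synthase, averaged 261 ± 71.8 in WT, 349 ± 69.6 in HZ and 323 ± 14.5 in KO (SD, n = 3). Its log2 change was 0.41 in HZ against WT (limma adjusted p = 0.790) and 0.33 in KO against WT (limma adjusted p = 0.740). The mRNAs of the proteins that set Odc1 turnover were bright. Oaz1, the antizyme that directs Odc1 to degradation, had a log2 change of -0.03 in KO against WT (95% interval -0.26 to 0.20), and Azin1, the inhibitor that binds antizyme, of -0.02 (-0.44 to 0.40). The other Azin1 probe set was at -0.21.

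**Figure D5:**
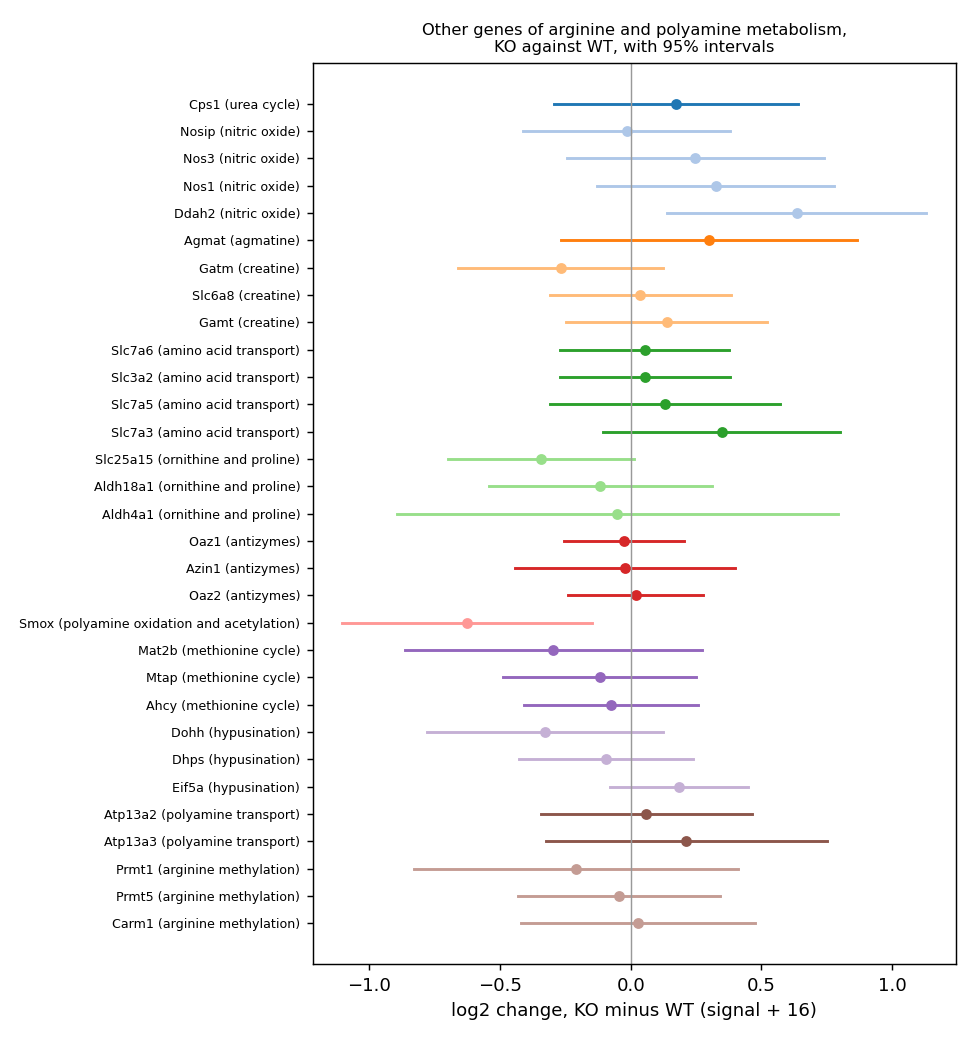
Log2 change in KO against WT, on the log2(signal + 16) scale, of the 31 tested genes of arginine and polyamine metabolism outside the main enzymes, coloured by role, with 95% intervals from limma. Smox at -0.63 and Ddah2 at 0.63 are the 2 genes whose interval leaves out 0, and neither passed after adjustment.

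The genes whose pattern was most like Arg2 were taken by Pearson r with 1418847_at over the 9 arrays, among 8498 genes. The median r over those genes was -0.02, and 5% lay above 0.644. The highest were Marchf2, a membrane-bound ubiquitin ligase, at 0.958, Parp6, of the ADP-ribosyltransferase family, at 0.940, Cldn10, a claudin, at 0.938, Bcl6, a transcriptional repressor, at 0.930, and Gap43 at 0.926. Cldn10 followed the other Arg2 probe set more closely, at 0.989, and averaged 286 ± 33.6 in WT, 245 ± 22.1 in HZ and 159 ± 12.8 in KO (SD, n = 3). Bcl6 averaged 313 ± 45.7, 270 ± 56.8 and 166 ± 28.3 in the same order. With genotype means removed, the r with Arg2 was 0.846 for Marchf2, 0.805 for Parp6 and 0.660 for Bcl6. It was 0.246 for Cldn10 and 0.253 for Gap43.

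The genes most opposite to Arg2 were Tlr6, an innate immune receptor, at -0.98, Ciz1, a nuclear zinc finger protein, at -0.93, Coro1c, an actin-binding coronin, at -0.93, Ipo9, a nuclear import receptor, at -0.92, and Cd47, a membrane protein that restrains phagocytosis, at -0.92. Tlr6 was dim, at 123 ± 5.57 in WT, 132 ± 14.7 in HZ and 179 ± 10.3 in KO (SD, n = 3). Cd47 was bright, at 2980 ± 52.2, 3237 ± 409 and 4253 ± 548. After the genotype means were removed, r was -0.81 for Tlr6, -0.74 for Ciz1, -0.40 for Coro1c, -0.52 for Ipo9 and -0.59 for Cd47. The correlations over the 9 arrays include the KO against WT difference that chose Arg2. They were picked as the extremes of 8498 and are descriptions.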

How the data were processed

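The authors deposited a linear intensity for each probe set, and the submitters' processing notes name MAS5 and Affymetrix Expression Console without a version. Each array is 1 mouse per the labels. Groups came from the sample titles. Values were taken as log2(signal + 16), 64 controls were dropped, and the brightest 60% of the remainder by mean log2 value (13576) were tested. Genotype was fitted over the 9 arrays together (limma 3.58.1, R 4.3.3, eBayes with an intensity trend), 2-sided, with Benjamini-Hochberg adjustment over these 13576. Arg2 was left out of the counts of tested members. Symbols came from the platform annotation, where 20380 probe sets had 1 symbol, 691 several and 1555 none. Other genes were read by their probe set of highest mean. The rule for named genes took every member, pathway genes with an unadjusted p below 0.05, Arg1, Nos1, Azin1 and Oaz1, and the 5 genes of highest and of lowest r with Arg2. Members and lists were chosen with earlier results of these data known. The fit was tested on simulated data. No probe set coordinates are printed, since no genome build is stated for them. Mice with the same number in the titles were not taken as pairs.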

Additional observations from a re-analysis of the deposited data

How the results depend on the processing

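Neither Arg2 probe set changed direction in any comparison under the 21 alternatives. One of these, the filter ranked on mean linear signal, was chosen after seeing the data and changed no call and no count past the threshold. For Arg2 in KO, leaving out 1 array could not turn the sign, since all KO arrays lay below all WT and HZ arrays. Settings that alter only the filter or the spread leave the log2 difference as it is. Nothing is therefore read from the constant direction of Arg2, which these arrays chose. With a pseudocount of 64, the dimmer Arg2 probe set moved to -0.96 in KO against WT and -0.62 in KO against HZ, and Asl to 0.46 in KO against HZ, since a larger pseudocount shrinks dim differences. No other member, and no pathway gene, passed the adjusted threshold of 0.05 in limma under any alternative that tested it (smallest adjusted p of a member 0.434). Asl, below the filter, had no value with array weights, the 3'/5' ratio, sex or the replicate number as a term. Over all probe sets, the count past the threshold in KO against WT went from 1 to 0 without the filter or without the intensity trend and to 5 with array weights. In HZ against WT it went from 0 to 3 with array weights. In KO against HZ it went from 1 to 0 without the filter, without the trend, with arrays set to 1 median, with quantile normalization and with the 3'/5' ratio. Leaving out 1 array gave 0 to 2 in each comparison.

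Log2 changes of members other than Arg2 turned sign in 32 of 681 alternative values. Many of the 681 could not turn, since settings that alter only the filter or the spread leave the log2 difference as it is. Counted by probe set and comparison, 19 of 33 turned sign under some alternative. The main values of those that turned reached -0.43 (Ass1 and Gm5424, KO against WT). With array weights Odc1 in KO against WT turned to -0.052 on 1438761_a_at, -0.0015 on 1437711_x_at and -0.022 on 1427364_a_at, and Oat in KO against HZ to -0.016. With quantile normalization Sms 1428699_at in KO against WT turned to -0.0080. Leaving out 1 array at a time gave, in KO against WT, ranges of -0.97 to 0.37 for Ass1 and Gm5424, -0.10 to 0.33 for Asl, -0.17 to 0.0035 for Oat, -0.11 to 0.24, -0.082 to 0.26 and -0.19 to 0.25 for the 3 Odc1 probe sets, -0.066 to 0.17 for Sms 1434190_at and -0.10 to 0.21 for Sms 1428699_at. In HZ against WT the ranges were -0.20 to 0.020 for Oat, -0.21 to 0.032 for Odc1 1438761_a_at, -0.23 to 0.077 for Odc1 1437711_x_at, -0.0023 to 0.083 for Srm, -0.039 to 0.13 for Sms 1421052_a_at and -0.37 to 0.0096 for Sat1. In KO against HZ they were -0.099 to 0.12 for Oat, -0.018 to 0.33, -0.0072 to 0.35 and -0.062 to 0.39 for the 3 Odc1 probe sets, and -0.33 to 0.076 for Sat1. The cause was not tested.

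With the replicate number of the titles as a block, 0 members and 0 pathway genes passed in each comparison, and 2 probe sets of all, in place of 1, passed in KO against HZ. Same-numbered mice correlated at -0.26 to 0.11 in their deviations from the genotype means, with 1 of 9 pairs over 0.1, so the numbers were not taken as pairs.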
